A study of Mus musculus with 10 samples.

Results

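The genes described here encode the NF-kappaB transcription factor subunits, the IkappaB proteins that hold them back, the kinases that release them, and the ubiquitin editing proteins and other targets through which the pathway limits itself. The list held 32 mouse genes. Each was read by the probe set that the platform annotation gave to it alone, the one with the highest mean over the 10 arrays where there were several. This gave 30 measured members among 19938 genes in all. Nfkb1 and Chuk had no probe set of their own in the annotation used and were not analysed here. The arrays were hybridised with cDNA from total RNA of immortalized murine macrophages, and values are log2 signals per probe set.

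One line lacked Toll-like receptor 9 (TLR9), which senses microbial DNA in endosomes, and is labelled TLR9KO. The other is labelled wild-type B6 on its bead arrays and wild-type, with no strain named, on its unstimulated arrays. The groups were TLR9KO cells given β-1,3 glucan beads (2 arrays), unstimulated TLR9KO cells (2 arrays), wild-type cells given beads (3 arrays) and unstimulated wild-type cells (3 arrays). Beads of this fungal wall sugar, which the receptor Dectin-1 binds, were given at 20 per cell for 4 h. Each genotype was 1 immortalized line, so genotype and line cannot be told apart. Nothing in the labels ties the arrays of a group to different cultures, and the p-values therefore cover array-to-array spread, which may be technical.

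In resting cells NF-kappaB dimers are kept in the cytoplasm by IkappaB proteins. Signals from Toll-like receptors, TNF receptors or, through Syk and Card9, Dectin-1 activate the IkappaB kinase complex, the inhibitor is degraded and the dimer enters the nucleus. Many of the first genes it induces switch the pathway off again, among them IkappaB alpha, the ubiquitin editing enzyme encoded by Tnfaip3 and its partners. A slower, non-canonical branch runs through the kinase encoded by Map3k14 and processing of the Nfkb2 product, which pairs with Relb. In macrophages the pathway drives cytokine, chemokine and survival genes.

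All 10 macrophage markers examined were measured, with group means from 6.08 (Mertk, TLR9KO with beads, close to the median of those arrays) to 12.6 (Cd68, wild type with beads). The mean over that list was 10.5 to 10.7 in TLR9KO bead arrays, 10.7 to 10.8 in unstimulated TLR9KO arrays, 10.1 to 10.7 in wild-type bead arrays and 10.4 to 10.5 in unstimulated wild-type arrays. Of the 10, Fcgr1, Adgre1 and Csf1r were higher and Mertk was lower in the TLR9KO line, both with and without beads, and their part in the results on the members was not tested. Of 21 genes that mark fibroblasts, lymphocytes, dendritic cells or granulocytes 20 were measured. None of them passed in any comparison, their differences ran from -0.27 to 0.24, and 6 were under the 25th percentile on each of the 10 arrays. Tlr9 read 7.31 to 7.35 in TLR9KO cells with beads, 7.44 to 7.62 in unstimulated TLR9KO cells, 7.03 to 7.44 in wild-type cells with beads and 6.91 to 7.32 in unstimulated wild-type cells. No source used here places its probes inside or outside the deletion, so it does not check the labels. Wild-type bead array 3 stood apart, with a mean correlation of 0.973 with its group mates across genes against 0.985 to 0.997 for the other arrays. Each call between the lines that it changes for a member is given with and without it, as are some of the values.

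With all 10 arrays, each NF-kappaB regulator that passed the test between the lines was higher in the TLR9KO line, and the size of the difference varied widely between members. Without beads Tnip3 was 8.64-fold, Nfkbie 3.07-fold and Birc3 2.75-fold higher, while Ikbkb, Cyld and Traf2 had differences close to 0. In RNA from whole cultures, more cells that express a gene and more RNA per cell cannot be told apart. Without beads 11 of the 30 members were higher and 0 lower (limma, Benjamini-Hochberg adjusted p under 0.05 over all genes), where 3.79% of all genes were higher and 4.46% lower. With beads 14 of 30 were higher and 0 lower, against 3.82% and 3.40% of all genes. All 11 of the first count were among the 14 of the second, and Ikbkg, Map3k14 and Zc3h12a passed with beads and not without. When wild-type bead array 3 was left out, these 3 passed in both comparisons (limma adjusted p = 0.0284, 0.0297 and 0.0179 without beads). The median difference of the members was 0.38 without beads, where that of all genes was 0.017, and 0.41 with beads, where that of all genes was -0.011. The 2 medians with beads were 0.30 and 0.049 without wild-type bead array 3. The members were chosen with earlier results of these data known, so their excess over all genes is not an independent test. Without wild-type bead array 3 the counts were 17 higher and 1 lower without beads (7.08% and 11.3% of all genes), and 15 higher and 1 lower with beads (7.19% and 13.7% of all genes), the lower one being Ikbke each time. Several calls with beads ended when 1 TLR9KO bead array was left out, which left 1 array in that group, and these are given by member below. Without wild-type bead array 2, 9 members were higher with beads. Of all genes 976 then passed with beads in either direction, against 1439 with all arrays. Fitted on the bead arrays alone, 4 members were higher with beads, Birc3, Nfkbie, Otud1 and Tnip3, and 480 of all genes passed in either direction. After centring each array on its median 7 members were higher with beads, and 734 of all genes passed in either direction. The calls for Relb, Bcl3, Ikbkg, Map3k14, Tnfaip3, Zc3h12c and Tnfaip2 were lost (limma adjusted p = 0.0536 to 0.448).

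**Figure D1:**
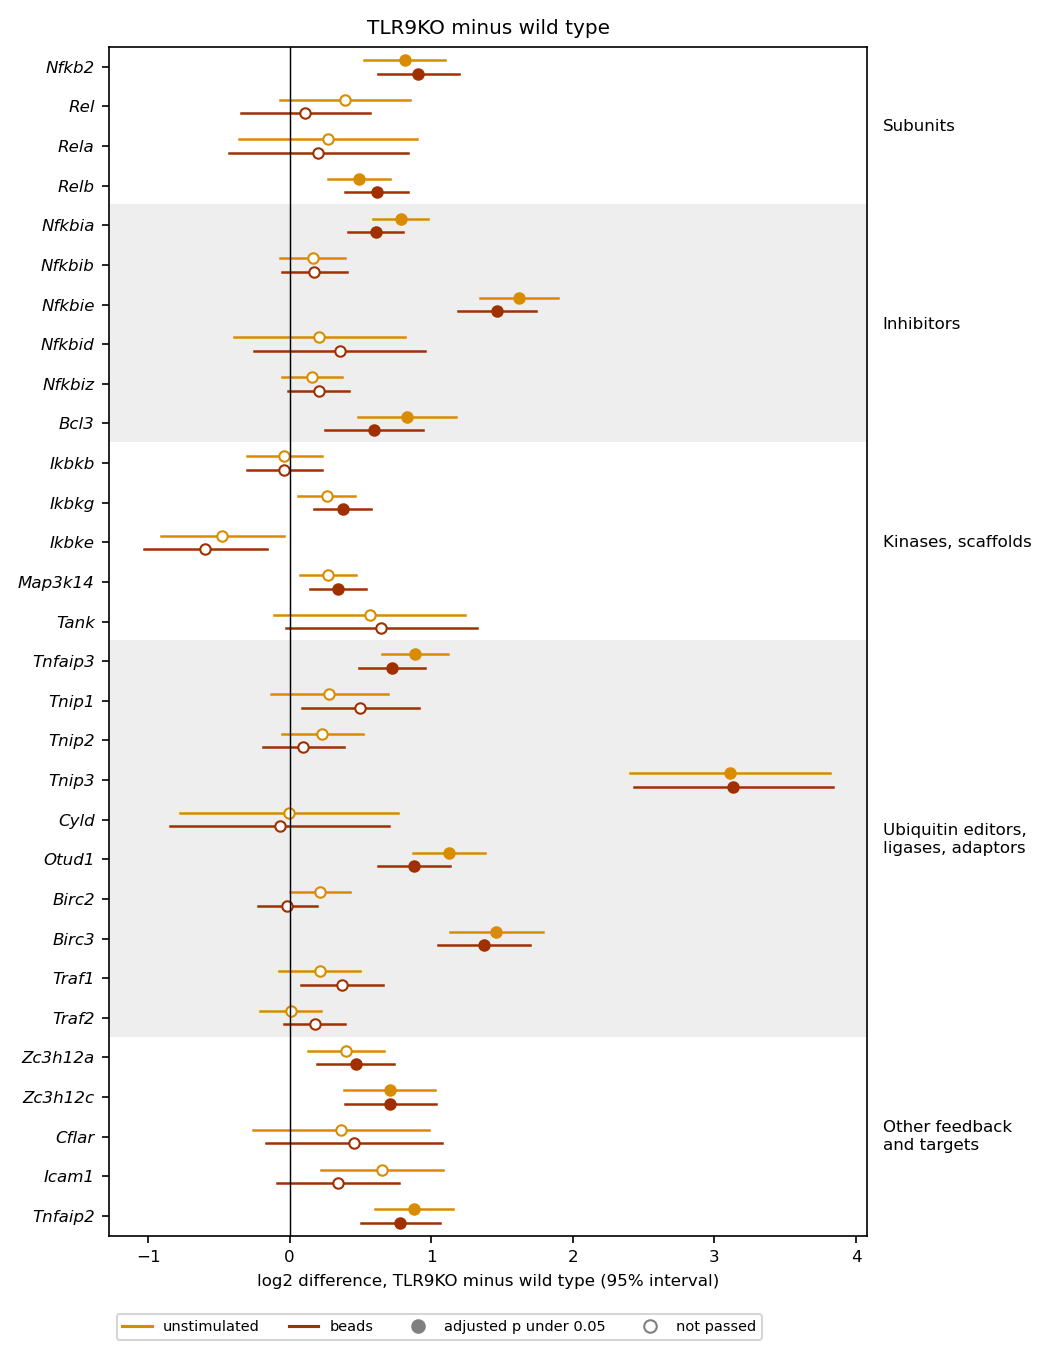
Difference between the lines for the 30 measured members, as log2 signal in TLR9KO minus wild type on the horizontal axis, with points for the fitted value and lines for its 95% interval, without beads (orange) and with beads (brown). Filled points passed at an adjusted p under 0.05; Tnip3 stands near 3.1, Nfkbie near 1.6 and 1.5, and Ikbke at -0.48 and -0.60.

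The same split appeared when arrays were simply ranked. In 13 members all 4 TLR9KO arrays lay above all 6 wild-type arrays, whichever treatment they had, where 7.32% of all genes did so. They were Nfkb2, Relb, Nfkbia, Nfkbie, Bcl3, Map3k14, Tnfaip3, Tnip3, Otud1, Birc3, Zc3h12a, Zc3h12c and Tnfaip2. Ikbke was the 1 member with all TLR9KO arrays below all wild-type arrays, where 7.88% of all genes did so. Without beads the TLR9KO arrays lay above the wild-type arrays in 22 of 30 members (17.7% of all genes) and below in 1 (21.1%). With beads they lay above in 19 (11.3%) and below in 1 (12.3%).

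Among the 4 measured subunits, Nfkb2 and Relb, the partners of the non-canonical branch, were higher in the TLR9KO line, and the values for Rel and Rela did not pass. The median of the 4 was 0.44 without beads and 0.41 with beads. Nfkb2 read 8.42 and 8.64 in unstimulated TLR9KO cells, against 7.72, 7.75 and 7.70 in unstimulated wild-type cells. The bead arrays gave 8.68 and 8.51 in TLR9KO cells, against 7.63, 7.53 and 7.89 in wild-type cells. No TLR9KO array reached down to a wild-type array under either condition. The differences were 0.81 ± 0.13 (SE; 1.76-fold; limma adjusted p = 0.00386) without beads and 0.91 ± 0.13 (1.88-fold; limma adjusted p = 0.00215) with beads. The call without beads ended without unstimulated TLR9KO array 2 (adjusted p = 0.0582).

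Relb read 7.76 and 7.90 in unstimulated TLR9KO cells, against 7.42, 7.26 and 7.35 in unstimulated wild-type cells. After beads its signal was 7.84 and 7.98 in TLR9KO cells, against 7.37, 7.27 and 7.25 in wild-type cells. The gap was narrower than for Nfkb2 but again without overlap. It amounted to 0.49 ± 0.10 (1.40-fold; limma adjusted p = 0.0142) and 0.61 ± 0.10 (1.53-fold; limma adjusted p = 0.00461). The call without beads ended when any of 4 arrays was left out, unstimulated TLR9KO array 1 or 2 or unstimulated wild-type array 2 or 3 (adjusted p = 0.0554 to 0.155), and after centring on the median (0.148). The call with beads ended without TLR9KO bead array 2 (0.0736).

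Rel encodes c-Rel, a transactivating subunit prominent in haematopoietic cells. It read 9.19 and 9.16 in unstimulated TLR9KO cells, against 8.82, 8.77 and 8.76 in unstimulated wild-type cells, groups that did not overlap. With beads it read 9.03 and 9.11 in TLR9KO cells, against 9.25, 9.17 and 8.46 in wild-type cells, and the TLR9KO arrays lay inside the wild-type range. The difference without beads was 0.39 ± 0.20 (limma adjusted p = 0.397). It passed without wild-type bead array 3 (limma adjusted p = 0.00412), whose level does not enter this difference but enters the shared estimate of spread. With beads the difference of Rel was 0.11 ± 0.20 with that array and -0.14 ± 0.08 without it, neither of which passed. Rela, the main transactivating subunit of the canonical branch, overlapped between the lines in both comparisons, at 0.27 ± 0.28 without beads and 0.20 ± 0.28 with beads. Its 95% interval with beads ran from -0.43 to 0.83, and without wild-type bead array 3 the difference with beads was -0.12 ± 0.15, of the opposite sign. The median of the 4 subunits with beads was then 0.24.

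**Figure D2:**
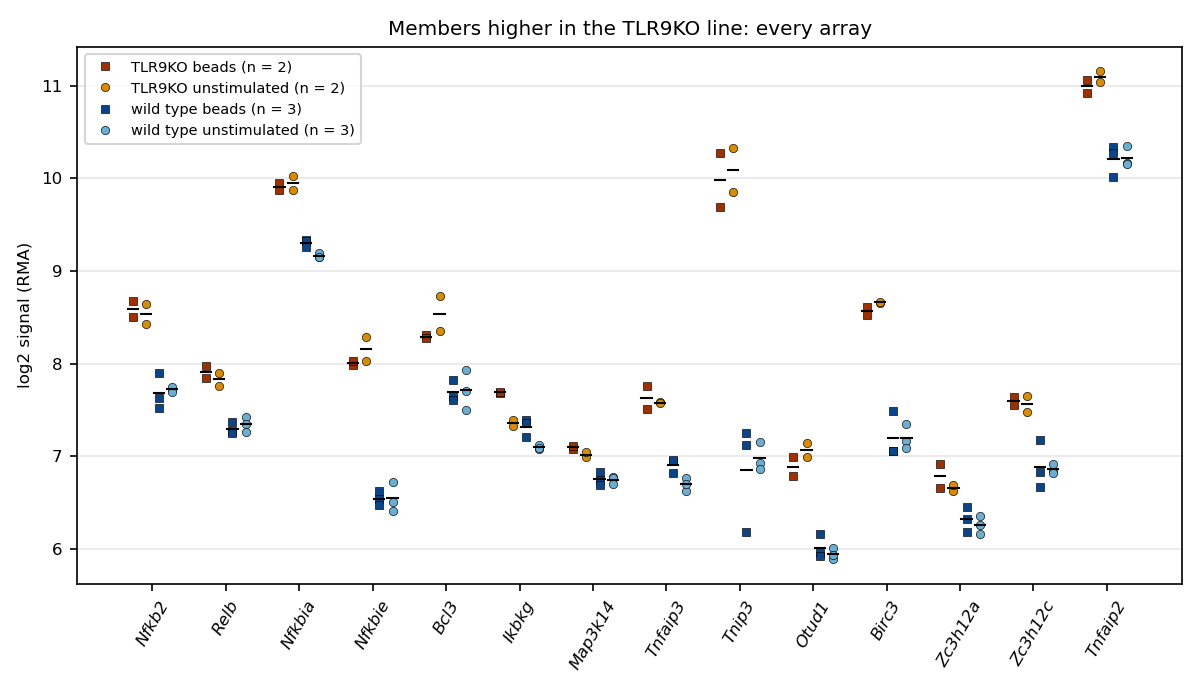
Log2 signal on every array (points) with the group mean (bar) for the 14 members higher in the TLR9KO line with beads, 11 of which were also higher without. For each gene the groups run from left to right as TLR9KO with beads, TLR9KO unstimulated, wild type with beads and wild type unstimulated. The TLR9KO points of Tnip3 lie between 9.70 and 10.3 and the wild-type points between 6.18 and 7.25.

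Of the 6 genes of IkappaB proteins, classical and atypical, grouped here as inhibitors, 3 were higher in the TLR9KO line in both comparisons: Nfkbie, Nfkbia and Bcl3. The class of 6 had a median of 0.50 without beads and 0.47 with beads, the latter 0.40 without wild-type bead array 3. Nfkbie, which encodes IkappaB epsilon, differed most of the 3. It read 8.03 and 8.29 in unstimulated TLR9KO cells, against 6.72, 6.50 and 6.41 in unstimulated wild-type cells, and 7.99 and 8.03 in TLR9KO cells with beads, against 6.62, 6.54 and 6.47 in wild-type cells with beads. The gap between the lines exceeded 1 log2 unit at its closest points. The differences were 1.62 ± 0.12 (3.07-fold; limma adjusted p = 4.57e-05) and 1.47 ± 0.12 (2.76-fold; limma adjusted p = 9.12e-05). With all arrays Nfkbie had the lowest adjusted p of all members both times.

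Nfkbia encodes IkappaB alpha, the inhibitor that NF-kappaB itself induces most directly. It read 9.87 and 10.02 in unstimulated TLR9KO cells, against 9.16, 9.19 and 9.15 in unstimulated wild-type cells. The bead arrays gave 9.95 and 9.88 in TLR9KO cells, against 9.33, 9.32 and 9.26 in wild-type cells. Arrays of a group agreed closely, and the lines differed by 0.78 ± 0.09 (1.72-fold; limma adjusted p = 5.17e-04) without beads and 0.61 ± 0.09 (1.52-fold; limma adjusted p = 0.00253) with beads.

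Bcl3, an atypical IkappaB protein of the nucleus that works with p50 and p52 dimers, read 8.73 and 8.35 in unstimulated TLR9KO cells, against 7.93, 7.50 and 7.71 in unstimulated wild-type cells. After beads its signal was 8.30 and 8.27 in TLR9KO cells, against 7.66, 7.60 and 7.82 in wild-type cells. The groups did not overlap, but the call with beads lay at the threshold. The differences were 0.83 ± 0.15 (limma adjusted p = 0.00953) and 0.59 ± 0.15 (limma adjusted p = 0.0496). The call with beads ended whenever either TLR9KO bead array, either of the first pair of wild-type bead arrays or the third unstimulated wild-type array was dropped (0.0925 to 0.271). The call without beads ended without unstimulated TLR9KO array 1 (0.116).

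The other 3 inhibitors did not pass. Nfkbib, which encodes IkappaB beta, differed by 0.16 ± 0.10 without beads and 0.17 ± 0.10 with beads. Nfkbid and Nfkbiz, both atypical nuclear IkappaB proteins, stood at 0.21 ± 0.27 and 0.16 ± 0.09 without beads, and at 0.35 ± 0.27 and 0.20 ± 0.09 with beads. All had positive values in both comparisons, with upper 95% bounds from 0.37 (Nfkbiz, without beads) to 0.96 (Nfkbid, with beads). For Nfkbid the difference with beads was 0.14 without wild-type bead array 3.

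Of the 5 measured IkappaB kinases and scaffold proteins, 0 passed without beads and 2 with beads, Ikbkg and Map3k14, both with differences under 1 log2 unit. With wild-type bead array 3 left out, 4 of the 5 passed without beads, Ikbkg, Map3k14 and Tank higher and Ikbke lower. The median of the 5 was 0.26 without beads and 0.34 with beads, the latter 0.30 without wild-type bead array 3. Ikbkg encodes the regulatory subunit of the kinase complex. It read 7.68 and 7.70 in TLR9KO cells with beads, against 7.39, 7.36 and 7.20 in wild-type cells with beads (0.38 ± 0.09; 1.30-fold; limma adjusted p = 0.0358). Unstimulated, it read 7.39 and 7.32 in TLR9KO cells, against 7.08, 7.12 and 7.09 in wild-type cells (0.26 ± 0.09; limma adjusted p = 0.135, and 0.0284 without wild-type bead array 3).

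Map3k14, the kinase that starts the non-canonical branch, read 7.08 and 7.11 in TLR9KO cells with beads, against 6.83, 6.75 and 6.69 in wild-type cells with beads (0.34 ± 0.09; 1.27-fold; limma adjusted p = 0.0468). Unstimulated, it read 6.99 and 7.05 in TLR9KO cells, against 6.78, 6.77 and 6.70 in wild-type cells (0.27 ± 0.09; limma adjusted p = 0.106, and 0.0297 without wild-type bead array 3). Both genes had no overlap between the lines in either comparison. The calls with beads for Ikbkg, Map3k14 and Zc3h12a ended whenever a single array other than wild-type bead array 3 was left out (adjusted p = 0.0544 to 0.426).

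Ikbke, an IkappaB kinase relative that acts mainly in interferon induction, ran the other way. It read 8.24 and 8.17 in unstimulated TLR9KO cells, against 8.80, 8.50 and 8.74 in unstimulated wild-type cells, and 8.04 and 8.20 in TLR9KO cells with beads, against 8.93, 8.93 and 8.29 in wild-type cells with beads. The TLR9KO arrays lay below in both comparisons, but the differences of -0.48 ± 0.19 (limma adjusted p = 0.218) and -0.60 ± 0.19 (limma adjusted p = 0.120) did not pass. Without wild-type bead array 3, the lowest of its group, they were -0.48 (limma adjusted p = 0.00755) and -0.81 (limma adjusted p = 5.57e-04), and both passed.

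Ikbkb, the catalytic kinase of the canonical branch, differed by -0.04 ± 0.12 in each comparison, with intervals from -0.30 to 0.23, and by -0.13 with beads without wild-type bead array 3. Tank, a scaffold of the IkappaB kinase relatives, read 8.97 and 8.59 in unstimulated TLR9KO cells, against 8.26, 8.19 and 8.19 in unstimulated wild-type cells. With beads it read 8.48 and 8.89 in TLR9KO cells, against 8.48, 8.29 and 7.33 in wild-type cells. The spread between arrays was wide, and neither 0.56 ± 0.30 nor 0.65 ± 0.30 passed. Without wild-type bead array 3 the difference without beads passed (limma adjusted p = 0.0173), and that with beads was 0.30 and did not.

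The ubiquitin editors, ligases and adaptors held both the member with the largest difference and several whose values lay close to 0. Of 10, the 4 genes Tnip3, Birc3, Otud1 and Tnfaip3 were higher in the TLR9KO line in both comparisons and 0 were lower. The class of 10 had a median of 0.25 without beads and 0.43 with beads, the latter 0.38 without wild-type bead array 3. Tnip3 encodes a ubiquitin-binding partner of the Tnfaip3 product. It read 10.33 and 9.85 in unstimulated TLR9KO cells, against 6.93, 7.15 and 6.86 in unstimulated wild-type cells. The bead arrays gave 9.70 and 10.27 in TLR9KO cells, against 7.25, 7.12 and 6.18 in wild-type cells. The lines stood 3.11 ± 0.31 apart (8.64-fold; limma adjusted p = 2.84e-04) without beads and 3.13 ± 0.31 (8.77-fold; limma adjusted p = 2.81e-04) with beads. The next largest differences with all arrays, those of Nfkbie, were 1.62 and 1.47. When wild-type bead array 3 was left out, the differences with beads were 2.80 for Tnip3, 1.52 for Birc3 and 1.43 for Nfkbie. The relatives of Tnip3, Tnip1 and Tnip2, which bind the same enzyme, stood at 0.28 ± 0.18 and 0.23 ± 0.13 without beads and at 0.50 ± 0.18 and 0.10 ± 0.13 with beads, and neither passed. Without wild-type bead array 3 the difference of Tnip1 with beads was 0.29 (limma adjusted p = 0.0574), and with all arrays it passed after centring on the 75th percentile (0.0364) and after quantile normalization (0.00742).

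Birc3 encodes a ubiquitin ligase of the TNF receptor complexes. It read 8.65 and 8.67 in unstimulated TLR9KO cells, against 7.16, 7.35 and 7.09 in unstimulated wild-type cells. After beads its signal was 8.62 and 8.53 in TLR9KO cells, against 7.05, 7.06 and 7.49 in wild-type cells. The lines were separated by over 1 log2 unit at every pair of arrays, and differed by 1.46 ± 0.14 (2.75-fold; limma adjusted p = 2.70e-04) and 1.37 ± 0.14 (2.59-fold; limma adjusted p = 3.95e-04). Birc2, its closest relative and neighbour in function, read 5.72 to 6.03 over all arrays and differed by 0.21 ± 0.09 without beads and -0.02 ± 0.09 with beads, neither of which passed.

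Otud1, a deubiquitinase, read 7.15 and 6.99 in unstimulated TLR9KO cells, against 6.01, 5.89 and 5.93 in unstimulated wild-type cells. With beads it read 6.99 and 6.79 in TLR9KO cells, against 5.95, 5.92 and 6.16 in wild-type cells. Both differences kept their call in every alternative tried, at 1.13 ± 0.11 (2.18-fold; limma adjusted p = 2.81e-04) and 0.88 ± 0.11 (1.84-fold; limma adjusted p = 0.00126).

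Tnfaip3 encodes the ubiquitin editing enzyme that ends NF-kappaB signalling from TNF and Toll-like receptors. It read 7.58 on both unstimulated TLR9KO arrays, against 6.62, 6.76 and 6.70 in unstimulated wild-type cells. The bead arrays gave 7.51 and 7.75 in TLR9KO cells, against 6.95, 6.96 and 6.82 in wild-type cells. The lines did not overlap, with differences of 0.88 ± 0.10 (1.85-fold; limma adjusted p = 6.97e-04) and 0.72 ± 0.10 (1.65-fold; limma adjusted p = 0.00236).

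Cyld, the deubiquitinase that trims the chains used in NF-kappaB signalling, had the widest intervals of all members, from -0.78 to 0.77 without beads and from -0.84 to 0.70 with beads. Its difference with beads was -0.07 with all arrays and -0.48 without wild-type bead array 3 (limma adjusted p = 0.0623). Traf2, a ligase adaptor of TNF receptors, differed by 0.0065 ± 0.096 without beads and 0.18 ± 0.10 with beads. Traf1, a related adaptor and a known NF-kappaB target, read 5.34 and 5.28 in TLR9KO cells with beads, against 4.84, 4.85 and 5.14 in wild-type cells with beads. Its difference of 0.37 ± 0.13 (limma adjusted p = 0.149) did not pass, and did without wild-type bead array 3 (0.47; limma adjusted p = 0.0106).

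Among the 5 other feedback and target genes, Tnfaip2 and Zc3h12c were higher in the TLR9KO line in both comparisons and Zc3h12a with beads. The median of the 5 was 0.65 without beads and 0.47 with beads, the latter 0.53 without wild-type bead array 3. Tnfaip2, a TNF-induced gene linked to membrane protrusions, read 11.04 and 11.16 in unstimulated TLR9KO cells, against 10.16, 10.35 and 10.15 in unstimulated wild-type cells, a difference of 0.88 ± 0.12 (1.84-fold; limma adjusted p = 0.00212). After beads its signal was 10.92 and 11.07 in TLR9KO cells, against 10.34, 10.28 and 10.01 in wild-type cells, a difference of 0.78 ± 0.12 (1.72-fold; limma adjusted p = 0.00430). The call with beads ended without TLR9KO bead array 2 (adjusted p = 0.0672), and that without beads after centring on the median (0.0632).

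Zc3h12a encodes an RNase that degrades inflammatory mRNAs, and Zc3h12c belongs to the same family. Zc3h12c read 7.65 and 7.48 in unstimulated TLR9KO cells, against 6.84, 6.92 and 6.82 in unstimulated wild-type cells (0.71 ± 0.14; limma adjusted p = 0.0147). With beads it read 7.55 and 7.64 in TLR9KO cells, against 7.17, 6.83 and 6.66 in wild-type cells (0.71 ± 0.14; limma adjusted p = 0.0152). The call without beads ended without unstimulated TLR9KO array 1 or 2 or unstimulated wild-type array 1 or 3, and that with beads without TLR9KO bead array 1 or 2 or wild-type bead array 2 (adjusted p = 0.0556 to 0.150). After centring on the median neither call held (0.185 and 0.181). Zc3h12a read 6.91 and 6.66 in TLR9KO cells with beads, against 6.18, 6.32 and 6.46 in wild-type cells with beads (0.47 ± 0.12; limma adjusted p = 0.0488), and its difference without beads was 0.40 ± 0.12 (limma adjusted p = 0.0815). The difference without beads passed without wild-type bead array 3 (0.0179), after quantile normalization, with array weights and in the compared groups alone.

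Icam1, an adhesion molecule induced by NF-kappaB, read 9.96 and 9.76 in unstimulated TLR9KO cells, against 9.45, 9.02 and 9.16 in unstimulated wild-type cells. The difference of 0.65 ± 0.19 did not pass (limma adjusted p = 0.0757) and passed without wild-type bead array 3 (0.00575). With beads it was 0.34 ± 0.19 with all arrays and 0.17 without that array. Cflar, which blocks caspase-8 downstream of death receptors, stood at 0.36 ± 0.28 without beads and 0.45 ± 0.28 with beads and passed neither test. Its difference with beads was 0.12 without wild-type bead array 3.

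Cflar, Birc2 and Zc3h12c had more than 1 probe set. For Zc3h12c the second probe set gave 0.82 without beads and 0.54 with beads, of the same sign as the values above, but the mean of both did not pass with beads (0.62; limma adjusted p = 0.0902). The other 2 probe sets of Cflar gave 0.38 and 0.46 without beads and 0.34 and 0.29 with beads. For Birc2 the second probe set gave 0.24 without beads and 0.15 with beads, so the probe sets disagreed in sign with beads.

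Sequence just upstream of the members is shown because many of these genes are known to be induced through kappaB sites, the decamers that NF-kappaB dimers bind. Promoters from RefSeq (GRCm38.p6), running from 250 bases before the annotated start to 50 from it on, were matched by symbol for 27 of the 30 measured members. They were searched on both strands for the kappaB consensus. The consensus was present in a promoter of 13 of the 27 members (48.1%), where 9.55% of all 27025 genes with a promoter had one, and in 8.46% of all 32851 promoters. Of members higher without beads 8 of 10 with a promoter held it, and of those that did not pass, 5 of 17. Of members higher with beads 8 of 13 held it, and of those that did not pass, 5 of 14. A match describes letters only, not a bound site. The windows below run from 130 bases before the start to 19 after it, on the strand of the gene, with each match to the consensus in capitals. Tnip3, Nfkbie, Nfkbia, Tnfaip3 and Nfkb2 were chosen as members higher in the TLR9KO line that hold a match, and Birc3 as one that does not.
Tnip3, chr6:65590268-65590417, plus strand: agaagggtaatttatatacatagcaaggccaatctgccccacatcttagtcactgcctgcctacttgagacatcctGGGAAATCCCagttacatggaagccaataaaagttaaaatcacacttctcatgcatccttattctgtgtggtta
Nfkbie, chr17:45555570-45555719, plus strand: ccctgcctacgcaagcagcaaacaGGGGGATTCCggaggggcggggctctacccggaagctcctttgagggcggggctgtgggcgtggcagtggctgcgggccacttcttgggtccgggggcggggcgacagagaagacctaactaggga
Nfkbia, chr12:55492628-55492777, minus strand: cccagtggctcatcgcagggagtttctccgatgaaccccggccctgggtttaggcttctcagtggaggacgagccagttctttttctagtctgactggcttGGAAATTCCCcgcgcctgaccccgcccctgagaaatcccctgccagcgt
Tnfaip3, chr10:19015391-19015540, minus strand: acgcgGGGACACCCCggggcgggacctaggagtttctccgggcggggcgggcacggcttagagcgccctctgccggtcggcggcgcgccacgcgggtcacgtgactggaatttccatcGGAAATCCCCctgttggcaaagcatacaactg
Nfkb2, chr19:46304607-46304756, plus strand: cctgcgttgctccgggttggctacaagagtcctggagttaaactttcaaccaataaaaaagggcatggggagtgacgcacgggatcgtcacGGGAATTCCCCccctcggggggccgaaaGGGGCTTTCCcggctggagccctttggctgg
Birc3, chr9:7873151-7873300, minus strand: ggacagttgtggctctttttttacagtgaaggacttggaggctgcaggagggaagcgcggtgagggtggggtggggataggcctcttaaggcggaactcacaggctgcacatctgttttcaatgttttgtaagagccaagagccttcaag

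The match of Tnip3 begins 54 bases before the start and that of Nfkbie 106 bases before it. That of Nfkbia begins 29 bases before the start and lies on the opposite strand, so the capitals show its reverse complement. Tnfaip3 holds one 125 and one 12 bases before the start, the latter on the opposite strand alone, so its capitals show the reverse complement. Nfkb2 holds an overlapping pair at 39 and 38 bases, that at 38 on the opposite strand alone, and one at 11 bases before this start. Its other 2 promoters overlap, and the match of the last is also a match of the one before. Birc3 and Otud1, among the members with the largest differences, had no match in their promoters, which says only that these letters are not in this window.

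**Figure D3:**
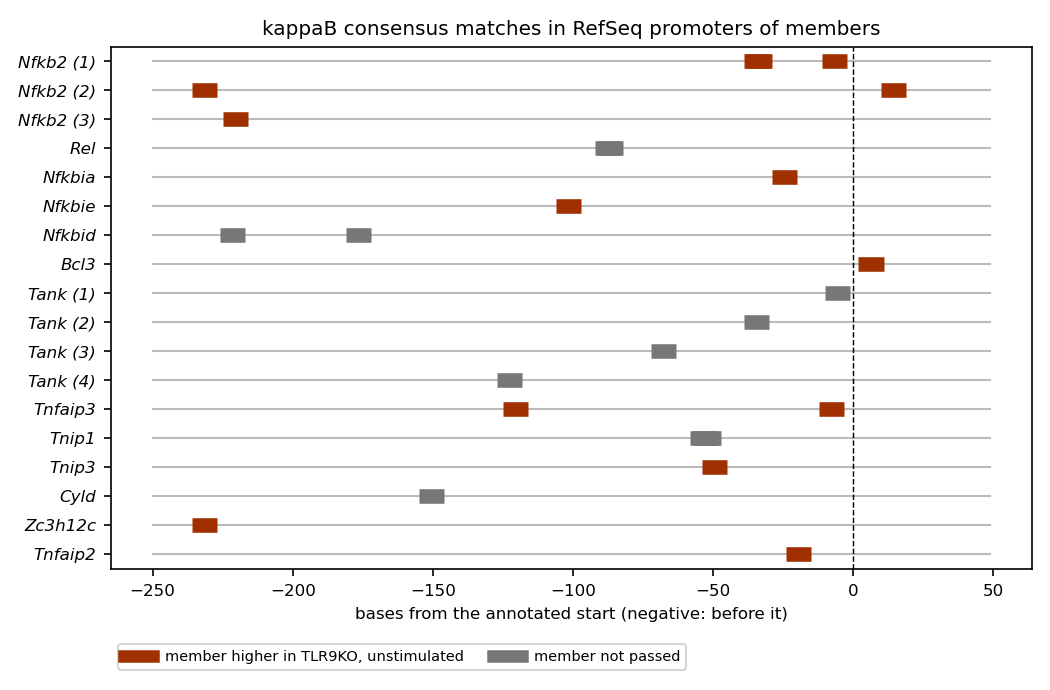
Position of kappaB consensus matches in the RefSeq promoters of members that hold one, in bases from the annotated start (negative before it), with 1 line per promoter. Brown blocks belong to the 8 members higher in unstimulated TLR9KO cells with all arrays, and grey blocks to 5 that did not pass. Most brown blocks begin no more than 125 bases from the start, and others lie near the far end for Nfkb2 and Zc3h12c. Overlapping promoters of Nfkb2 and of Tank show the same match on more than 1 line.

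No member passed the test for a bead response in either line. In TLR9KO cells 0 of 30 members passed (limma; 0 of all genes, 0%), and 1, Ikbkg, had an unadjusted p under 0.05, where 1.80% of all genes did. In wild-type cells 0 of 30 passed (limma; 0 of all genes, 0%), and 2, Ikbkg and Tnfaip3, had an unadjusted p under 0.05, where 0.838% of all genes did. The median response of the members was -0.05 in TLR9KO cells and 0.0033 in wild-type cells, and over all genes it was 0.0039 and 0.014. The TLR9KO responses ran from -0.27 (Cyld) to 0.33 (Ikbkg) and the wild-type responses from -0.21 (Cyld) to 0.22 (Ikbkg). The 95% intervals stayed within 1 log2 unit of 0 for 29 of 30 members in TLR9KO cells, Cyld being the exception, and for all 30 in wild-type cells, so smaller responses were not excluded. Without wild-type bead array 3 the TLR9KO response passed for 0 of 30 members and for 17 of all genes (0.0752% higher and 0.0100% lower).

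Ikbkg had the same sign in both lines. In TLR9KO cells it read 7.68 and 7.70 with beads, against 7.39 and 7.32 unstimulated, a difference of 0.33 ± 0.10 (limma unadjusted p = 0.00772, adjusted p = 1.00). In wild-type cells it read 7.39, 7.36 and 7.20 with beads, against 7.08, 7.12 and 7.09 unstimulated, a difference of 0.22 ± 0.08 (limma unadjusted p = 0.0227, adjusted p = 1.00). The bead arrays lay above the unstimulated arrays without overlap in each line, but neither value passed. Tnfaip3 in wild-type cells read 6.95, 6.96 and 6.82 with beads, against 6.62, 6.76 and 6.70 unstimulated (0.21 ± 0.09; limma unadjusted p = 0.0448). Nfkbia in wild-type cells also lay above its unstimulated arrays, at 0.14 ± 0.08 (limma unadjusted p = 0.103). Bead arrays were apart from unstimulated arrays for 4 members above and 6 below in TLR9KO cells, where 13.2% and 11.2% of all genes were, and 3 above and 0 below in wild-type cells, where 2.29% and 1.24% were.

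**Figure D4:**
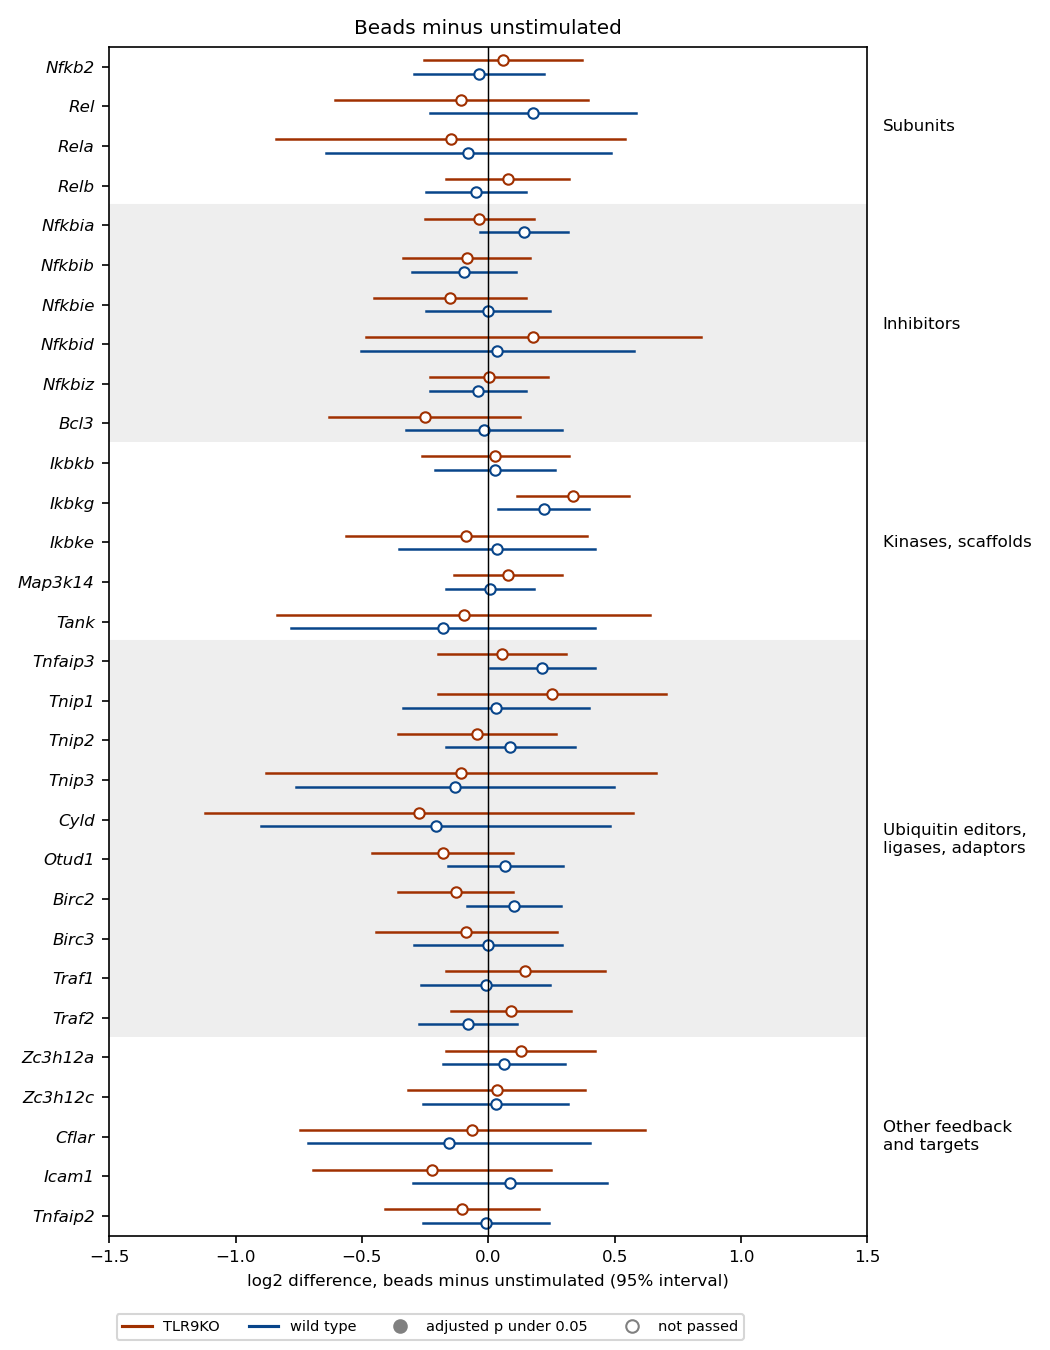
Bead response of the 30 measured members, as log2 signal with beads minus unstimulated on the horizontal axis, with 95% intervals, in the TLR9KO line (brown) and the wild-type line (blue). All points are open, since 0 of 30 passed in either line; Ikbkg lies farthest to the right in both, at 0.33 and 0.22.

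The unadjusted values of the wild-type response depended on 1 array. Wild-type bead array 3 lay below both other wild-type bead arrays in 22 of the 30 members and above both in 6. How many of all genes did so was not counted. Its median over all genes was 6.32 and its standard deviation 1.75, against 6.01 and 2.00 for array 1 and 5.99 and 1.98 for array 2. Over all genes this array thus had a higher median and a narrower spread than the other 2. Whether the low readings were particular to the members was not tested. Array 3 read lower than the mean of arrays 1 and 2 by 1.24 for Cyld, 1.05 for Tank, 1.01 for Tnip3, 1.00 for Cflar, 0.97 for Rela and 0.75 for Rel, in log2 units. Without it, 5 members had a higher value with an unadjusted p under 0.05, where 7.36% of all genes did, and 0 of 30 members and 0 of all genes passed after adjustment. The 5 were Rel (0.43 ± 0.07; limma unadjusted p = 1.90e-04, adjusted p = 0.157), Ikbkg (0.27 ± 0.07), Tnfaip3 (0.26 ± 0.09), Ikbke (0.25 ± 0.10) and Tnip1 (0.24 ± 0.09). The median response of the members was then 0.13, against -0.013 over all genes. With Rel, bead arrays 1 and 2 read 9.25 and 9.17, against 8.82, 8.77 and 8.76 unstimulated, and array 3 read 8.46. What made this array differ was not tested.

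**Figure D5:**
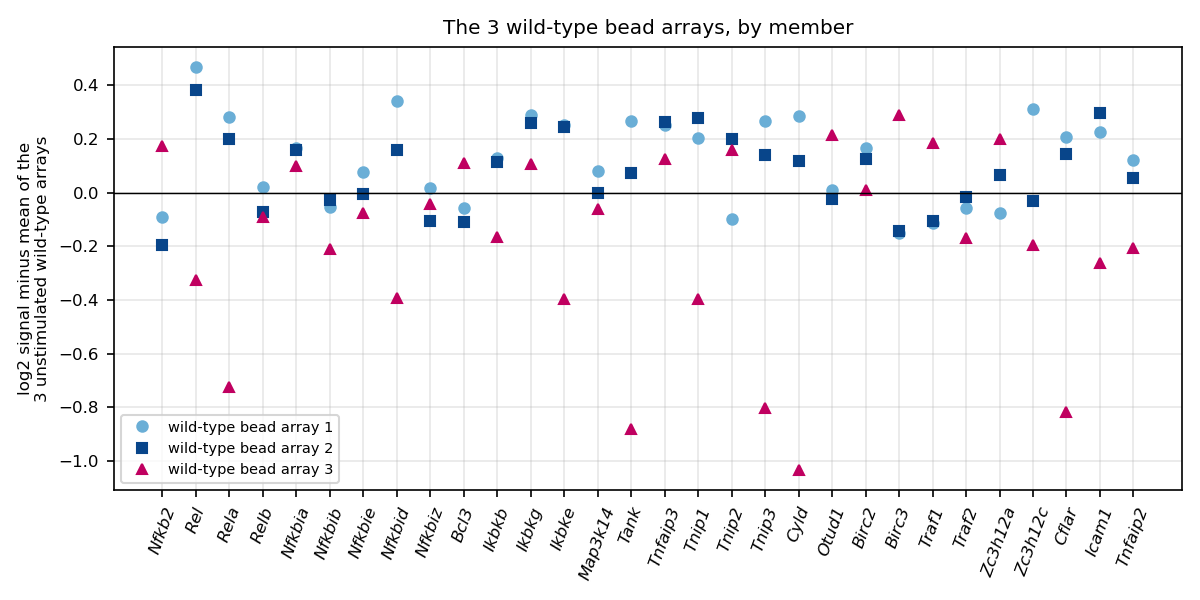
Log2 signal of each wild-type bead array minus the mean of the 3 unstimulated wild-type arrays, for the 30 measured members. Arrays 1 (light circles) and 2 (dark squares) lie close together for most members, while array 3 (triangles) lies below both in 22, by 1.24 for Cyld from their mean. The share of all genes for which array 3 lies below both was not counted.

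The bead responses of the lines were not shown to differ for any member. The difference between them, TLR9KO response minus wild-type response, passed for 0 of 30 members (limma; 0 of all genes, 0%), with 0 of 30 at an unadjusted p under 0.05, where 0.863% of all genes were. It ran from -0.31 (Icam1) to 0.22 (Tnip1), with a median of 0.0027 against -0.0074 over all genes. The 95% intervals lay within 1 log2 unit of 0 for 27 of 30 members, those of Tank, Tnip3 and Cyld reaching beyond. Without wild-type bead array 3 the values ran down to -0.53 (Rel; limma unadjusted p = 6.96e-04, adjusted p = 0.496), Tnip1 stood at 0.0090, and the median was -0.14, with 20 of 30 members negative, against 0.017 over all genes. The count after adjustment was again 0 of 30, and 4 members had a lower value at an unadjusted p under 0.05, where 3.00% of all genes did.

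Other genes of the pathway were examined as 2 lists. Of 28 upstream signalling genes 24 were measured, and 3 were higher and 0 lower in the TLR9KO line in each comparison. Of all genes 3.79% were higher and 4.46% lower without beads, and 3.82% and 3.40% with beads. The 3 higher genes were Irak3, an inhibitory relative of the receptor kinases (1.21 ± 0.11 without and 1.14 ± 0.11 with beads), Bcl10, which couples Card9 to the IkappaB kinases (1.00 ± 0.12 and 0.90 ± 0.12), and Rnf31, a subunit of the linear ubiquitin ligase (0.66 ± 0.08 and 0.56 ± 0.08). The median of this list was 0.05 without and 0.03 with beads. None of its 24 genes passed for the bead response of either line (limma), and 0 had an unadjusted p under 0.05 in either line.

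Of 30 other known NF-kappaB targets, 11 were higher and 5 lower in the TLR9KO line without beads (3.79% and 4.46% of all genes). With beads 10 were higher and 3 lower (3.82% and 3.40% of all genes). The members, by contrast, held 0 lower genes in either comparison with all 10 arrays. Ikbke was lower in both when wild-type bead array 3 was left out, and the counts of the targets are given with all arrays only. The difference between the lists was not tested, and both were chosen with earlier results of these data known. The targets with the largest differences were the chemokine Cxcl10 (4.14 ± 0.18 without and 4.44 ± 0.18 with beads), the chemokine Ccl5 (3.16 ± 0.23 and 2.93 ± 0.23), Marcksl1 (2.83 ± 0.40 and 2.77 ± 0.40) and Ebi3, an interleukin 27 subunit (1.97 ± 0.23 and 1.26 ± 0.23). Cxcl10 and Ccl5 are induced by interferon as well. The lower ones, named after their values were seen, were Ccl2 (-1.28 ± 0.17 without and -1.03 ± 0.17 with beads), Csf1 (-1.23 ± 0.15 and -0.96 ± 0.15) and Ccl3 (-0.58 ± 0.12 and -0.51 ± 0.12), and without beads also Il1a (-0.67 ± 0.16) and Bcl2l1 (-0.60 ± 0.11). The median of the list was 0.13 without and 0.08 with beads. In the bead response of either line 0 of 30 passed (limma). At an unadjusted p under 0.05 there were 4 in TLR9KO cells and 0 in wild-type cells, where 1.80% and 0.838% of all genes were.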

How the data were processed

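The deposited values are on the log2 scale, 1 per probe set and array. The submitters' processing notes name RMA, a method that corrects background, brings arrays to a common probe distribution and summarises probes, and no source used here gives its software. Over the genes used here the arrays still differed, with medians from 5.98 to 6.32 and standard deviations from 1.75 to 2.00. The deposited data held 28853 probe sets, of which 21789 carried 1 gene symbol in the platform annotation. Of these, 21698 were matched by Entrez ID and took the current symbol. No gene was removed for low signal, and no member lay below the 25th percentile of any array. Arrays were grouped by the labels. A linear model with 4 group means over the 10 arrays was fitted in limma 3.58.1 (R 4.3.3; lmFit and eBayes, 6 residual and 3.23 prior degrees of freedom), two-sided, with Benjamini-Hochberg adjustment over 19938 genes. The fit was tested on simulated data, drawn independently for each array with 1 spread per gene. No array stood apart in them, so they do not cover an array like wild-type bead array 3. The small number of arrays limits precision. Members and lists were chosen with earlier results of these data known. All members were named; of the other lists, per comparison, up to 4 genes with the largest difference that passed. The alternatives were a trended or robust eBayes, 2 centrings, quantile normalization, a low-signal filter, compared groups alone, array weights, averaged probe sets and each array left out.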

Additional observations from a re-analysis of the deposited data

How the results depend on the processing

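Of 2820 refits of single members, 2513 kept their direction and side of the threshold, 83 lost a call and 50 gained one. Another 173 turned sign with no call in either fit, 148 of them bead responses or their difference. With a call, 1 turned, Tnip3 in the wild-type bead response with array weights (0.23). Many of these refits had no call to lose, since 0 of 30 members passed for the bead responses or their difference. Of the line calls, 6 of 11 without beads and 4 of 14 with beads were kept in every alternative. Birc3, Nfkbie, Otud1 and Tnip3 kept both line calls in every alternative. Without beads, 17 members were higher after quantile normalization and 20 with array weights. Of all genes 2481 and 4451 passed in either direction, against 1645 in the main fit. Without beads 1 member (Ikbke) was lower with array weights or in the compared groups alone, where 4451 and 3262 of all genes passed. With beads, 7 members were higher after centring on the median and 4 in the compared groups alone. Of all genes 734 and 480 passed in either direction, against 1439 in the main fit. With beads 1 member (Ikbke) was lower after centring on the 75th percentile, after quantile normalization and with array weights. Of all genes 1460, 2283 and 6083 passed in these fits. With 1 array left out the count higher was 8 to 17 without beads and 7 to 15 with beads, and that lower 0 to 1 in both. For the wild-type bead response array weights gave 10 higher and 2 lower members (9174 of all genes); that weighting stopped before convergence and gave wild-type bead array 2 a weight of 12.1 and array 3 0.070. Of the bead results of members, 0 gained a call under any other alternative. Why counts moved was not tested. Compared groups alone could not be fitted for the difference of responses. No paired analysis was possible because no label carries a number shared between groups.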
